A study of Mus musculus with 6 samples.

Results

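A set of 9 genes of telencephalic patterning was examined by symbol in a table of read counts from Edf1 knockout and wild-type mouse ependymal cell cultures: Emx1, Emx2, Dlx1, Dlx2, Lhx2, Nkx2-1, Pax6, Gsx2 and Tbr1. All 9 were among the 22851 gene symbols of the table, and 7 of them had enough counts to be among the 14243 genes tested. They were chosen by name as dorsal and ventral transcription factors of the telencephalon by a rule that uses no measured value, although with earlier results of these data known. Radial glial cells had been isolated from brains of mice at postnatal day 0 to 3, on a C57BL/6J background in every group, and grown with 10% fetal bovine serum. Serum was then withdrawn for 6 days so that the cells formed multiciliated ependymal cells, the ciliated lining of the brain ventricles. The wild-type (WT) group and the Edf1 knockout group, from mice made with CRISPR/Cas9, had 3 libraries each, described as biological replicates. The knockout was carried by the whole animal, and the labels give neither the brain region dissected, nor the number of animals behind a culture, nor the number of founder lines.

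The telencephalon is the front part of the embryonic brain. Its dorsal part, the pallium, forms the cortex and hippocampus, and its ventral part, the subpallium, forms the striatum, the pallidum and most cortical interneurons. Opposing transcription factors divide these territories: Emx1, Emx2 and Pax6 mark the dorsal progenitors, Gsx2, Dlx1 and Dlx2 the lateral part of the ventral progenitors, and Nkx2-1 the medial part. Lhx2 sets cortical identity against the neighbouring dorsal midline, and Tbr1 acts in young glutamatergic neurons of the cortex. Radial glia and the ependymal cells that come from them can retain part of this code after birth.

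Total counts were 13071766 to 28087006 per library, and WT replicate 2 had the lowest total and lay apart from the other WT libraries on the second principal component. Edf1 fell from 82.8 ± 2.85 to 11.3 ± 1.72 CPM (read counts relative to the normalised library size; mean ± SD, n = 3 each) in the libraries labelled knockout. The ependymal markers were present in all libraries, with a summed level of 2105 to 2324 CPM in WT and 1249 to 1314 CPM in the knockout, and 10 of 10 fell. Of all tested genes, 26.9% were called at an adjusted p-value under 0.05 by edgeR's quasi-likelihood test, 12.7% as higher and 14.2% as lower in the knockout.

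Of the 7 tested factors, 3 fell in the knockout: Emx1, to 45.2% of the WT mean, Dlx2, to 58.0%, and Lhx2, to 82.1%. No member was called higher. The shares over all tested genes were 14.2% called lower and 12.7% called higher. Emx2, Pax6, Dlx1 and Nkx2-1 did not pass the test, and Gsx2 and Tbr1 had too few counts for one. The groups did not overlap for 6 of the 7 tested members, against 43.3% of all tested genes. In 4 members the knockout values were the lower ones (22.1% of all tested genes) and in 2 the higher ones (21.2%). The 7 had a median log2 fold change of -0.28, beside 0.0029 over all tested genes. The genes that fell are dorsal (Emx1, Lhx2) and ventral (Dlx2) factors, and the values of the list lay on either side of 0. RNA came from whole cultures, so fewer cells of a type and less RNA per cell cannot be told apart.

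**Figure D1:**
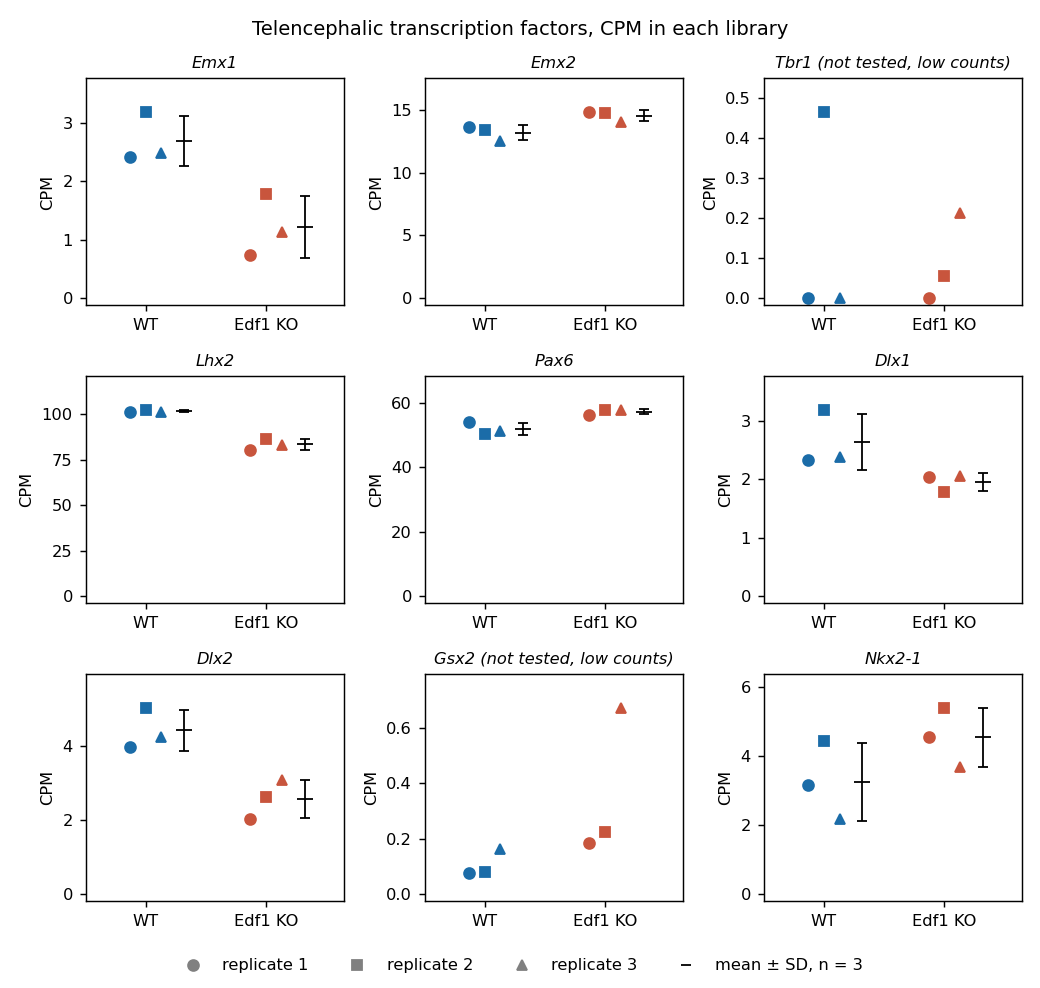
Level of each transcription factor in CPM (vertical axes, each from about 0 with its own scale) in the 3 WT and 3 Edf1 knockout libraries; symbols mark the replicate, and bars give the mean ± SD of 3 libraries for the 7 tested genes. Emx1, Dlx1, Dlx2 and Lhx2 lie lower in every knockout library than in any WT library, Emx2 and Pax6 lie slightly higher, and Nkx2-1 overlaps.

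In the GENCODE M21 annotation of GRCm38, the build named in the submitters' processing notes, 5 of the members lie on chromosome 2. They are Lhx2 (chr2:38339281-38369733, plus strand), Tbr1 (chr2:61802930-61814114, plus), Dlx1 (chr2:71528113-71533981, plus), Dlx2 (chr2:71543408-71546754, minus) and Pax6 (chr2:105668900-105697364, plus). The others are Gsx2 (chr5:75075601-75077893, plus), Emx1 (chr6:85187438-85204462, plus), Nkx2-1 (chr12:56531958-56536908, minus) and Emx2 (chr19:59458372-59465357, plus). Dlx1 and Dlx2 form a convergent pair of neighbours. Antisense genes overlap 8.79% of the exon bases of Emx2 (Emx2os) and 6.21% of those of Dlx1 (Dlx1as). Neither antisense gene has a row in the table, and whether the counting used strand is not stated, so antisense reads could be within the counts of these 2 genes. The other 7 members have no such overlap. At most 2.11% of a member's 31-base words occur on the same strand in a transcript of another gene, with the highest share in Nkx2-1, and Emx2 and Gsx2 have none.

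RefSeq promoter windows (GRCm38.p6, 250 bases before to 50 after a start site) were found for all 9 members, 11 windows in all. The 250 bases before the start are shown for Lhx2 and Dlx2, which fell, and for Pax6, as an abundant member that was not called. In these 3, as in Nkx2-1 and Gsx2, which are not shown, the stretch is free of annotated exons. The stretches are chr2:38339031-38339280 on the plus strand for Lhx2, chr2:71546755-71547004 on the minus strand for Dlx2 and chr2:105668646-105668895 on the plus strand for Pax6. Each reads 5′ to 3′ in the direction of the gene, and capitals mark the GC box GGGCGG or its reverse complement CCGCCC.
Lhx2: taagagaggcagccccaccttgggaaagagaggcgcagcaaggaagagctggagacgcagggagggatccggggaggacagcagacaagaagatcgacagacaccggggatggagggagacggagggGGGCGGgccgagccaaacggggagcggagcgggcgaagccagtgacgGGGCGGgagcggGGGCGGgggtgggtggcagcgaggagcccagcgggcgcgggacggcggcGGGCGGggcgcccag
Dlx2: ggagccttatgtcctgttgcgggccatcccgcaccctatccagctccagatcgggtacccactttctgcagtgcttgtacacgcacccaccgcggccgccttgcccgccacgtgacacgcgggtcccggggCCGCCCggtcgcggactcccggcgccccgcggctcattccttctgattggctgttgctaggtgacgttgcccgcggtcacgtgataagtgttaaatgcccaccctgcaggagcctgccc
Pax6: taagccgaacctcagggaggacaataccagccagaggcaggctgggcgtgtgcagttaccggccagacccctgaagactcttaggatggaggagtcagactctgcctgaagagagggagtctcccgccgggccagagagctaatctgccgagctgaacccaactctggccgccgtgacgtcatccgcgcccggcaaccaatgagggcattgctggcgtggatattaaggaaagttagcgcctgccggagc
The GC box stood 4 times before Lhx2, once before Dlx2 and nowhere in the Pax6 stretch. Searched on both strands, it is found in 35.66% of all 32851 mouse windows and in 60.2% of the windows of tested genes. The homeodomain core TAATTA, which reads the same on both strands, occurs in 5.29% of all windows and in 2.8% of those of tested genes. It was absent from the windows of Lhx2, Dlx2, Emx1, Dlx1, Gsx2, Nkx2-1 and Pax6, and present in those of Emx2 and Tbr1. GC content of the 11 windows ran from 46.0% for Tbr1 to 74.7% for the Lhx2 window shown, against a median of 52.7% over all windows. Emx1 had 74.0%, Dlx2 66.3%, Nkx2-1 53.7%, and the 2 Pax6 windows 58.7% and 46.3%. A match or its absence describes these letters only.

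The dorsal homeobox genes Emx1 and Emx2 are paralogs with overlapping expression in the cortical primordium. Emx1 had 64, 41 and 46 counts in WT replicates 1, 2 and 3, against 12, 32 and 32 in the knockout. On the CPM scale the WT values were 2.41, 3.18 and 2.49 and the knockout values 0.74, 1.78 and 1.13. Every knockout library was below every WT library, and knockout replicate 1 was the lowest. Emx1 thus had a log2 fold change of -1.12 (SE 0.29, 95% interval -1.75 to -0.48), with an adjusted p-value of 0.0133 by edgeR's quasi-likelihood test. It no longer passed when knockout replicate 1 was left out, at -0.90 with an edgeR adjusted p-value of 0.0534, or when knockout replicate 3 was, at -1.04 with 0.0650. The 14 alternatives gave edgeR, DESeq2 or limma adjusted p-values of 0.00400 to 0.0650, and the value stayed below 0 in each.

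Emx2, which controls the size and regional identity of the caudal cortex and hippocampus, did not move with Emx1. WT replicates 1, 2 and 3 had 13.7, 13.4 and 12.5 CPM, and those of the knockout 14.9, 14.8 and 14.0 CPM. The knockout libraries were all slightly higher than the WT libraries, without overlap. Its log2 fold change of 0.13 (SE 0.089, 95% interval -0.059 to 0.33) had an adjusted p-value of 0.297 by edgeR, and it was called in none of 15 alternatives. The interval holds no fall of the size fitted for Emx1.

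Lhx2, a LIM-homeodomain factor needed for cortical and hippocampal fate and for the balance of neurons and glia, was the most abundant member. It had 101.4, 102.4 and 101.3 CPM in WT replicates 1, 2 and 3, against 80.6, 86.5 and 83.3 CPM in those of the knockout. The 3 WT values were nearly equal, and the nearest knockout value lay well below them. Its fitted change was -0.28 on the log2 scale (SE 0.054, 95% interval -0.40 to -0.17), with an adjusted p-value of 0.00179 by edgeR. The change was small, but at 1312 to 2694 counts per library it was called in all 15 alternatives, with adjusted p-values of 0.000195 to 0.0170.

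Pax6, a paired-box and homeobox factor of cortical radial glia that also acts in adult neural stem cells, had 54.1, 50.5 and 51.4 CPM in WT. In the knockout it had 56.4, 57.7 and 57.9 CPM, each above all WT values. This difference of 0.14 on the log2 scale (SE 0.057, 95% interval 0.016 to 0.26) did not pass, with an adjusted p-value of 0.0907 by edgeR and of 0.0695 to 0.217 over its alternatives. Tbr1, the T-box factor of early cortical neurons, had 0, 6 and 0 counts in WT, against 0, 1 and 6 in the knockout. Only 1 library of each genotype was above the floor of 3 counts, so no difference was detectable at this depth.

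The ventral factors Dlx1 and Dlx2, which drive interneuron and striatal differentiation downstream of Gsx2, had low counts. Dlx2 had 106, 65 and 79 counts in WT, against 33, 47 and 87 in the knockout. Scaled by depth, WT had 3.99, 5.05 and 4.27 CPM and the knockout 2.03, 2.62 and 3.08 CPM. The groups did not overlap, and knockout replicate 1 was again the lowest. Dlx2 thus had a log2 fold change of -0.74 (SE 0.20, 95% interval -1.17 to -0.30), with an adjusted p-value of 0.0163 by edgeR. Without knockout replicate 1 it was -0.61 with an adjusted p-value of 0.0641 by edgeR, the highest over its alternatives, of which the lowest was 0.00880.

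Dlx1, the neighbour of Dlx2, had 2.33, 3.18 and 2.38 CPM in WT, against 2.03, 1.78 and 2.05 CPM in the knockout. Its knockout values were lower in every library, by less than for Dlx2. Its fitted change of -0.39 on the log2 scale (SE 0.22, 95% interval -0.87 to 0.081) did not pass, with an adjusted p-value of 0.209 by edgeR. Inside each library, Dlx1 amounted to 58.5%, 63.1% and 55.7% of Dlx2 in WT, against 100%, 68.1% and 66.7% in the knockout. This ratio was higher in every knockout library, with a two-sided exact permutation p of 0.1, the smallest that 3 against 3 libraries allow. Gsx2, which lies upstream of the Dlx genes in the lateral ventral progenitors, had 2, 1 and 3 counts in WT, against 3, 4 and 19 in the knockout. All WT libraries and knockout replicate 1 were at or under the floor, and knockout replicate 3 alone held most of the counts. Without the filter on low counts its adjusted p-value was 0.0928 by edgeR.

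Nkx2-1, the determinant of the medial ventral telencephalon, is also a factor of the hypothalamus and of the posterior pituitary. Its WT libraries had 3.16, 4.43 and 2.16 CPM and its knockout libraries 4.55, 5.40 and 3.68 CPM. The groups overlapped, since WT replicate 2 exceeded knockout replicate 3. For Nkx2-1 the log2 fold change of 0.50 (SE 0.24, 95% interval -0.023 to 1.03) had an adjusted p-value of 0.148 by edgeR. Without WT replicate 2, the shallowest library, it was 0.72 with an adjusted p-value of 0.0213 by edgeR, while the other 14 alternatives gave 0.0536 to 0.393.

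**Figure D2:**
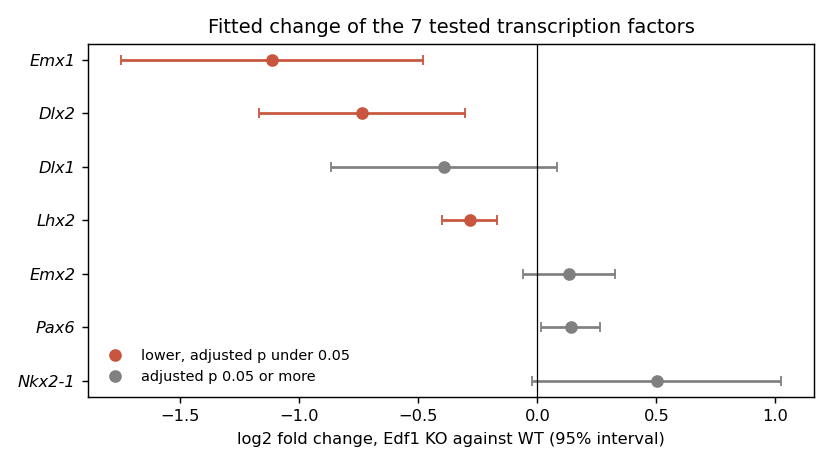
Log2 fold change of Edf1 knockout against WT (horizontal axis) for the 7 tested factors, with 95% intervals from the edgeR fit over all genes (3 libraries per genotype). Emx1 (-1.12), Dlx2 (-0.74) and Lhx2 (-0.28) were called lower, and the grey genes were not called.

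Levels were compared between genes per kilobase of merged exons (RPKM). In WT the order was Lhx2 at 23.2 ± 0.14 RPKM, Pax6 at 4.45 ± 0.16, Emx2 at 4.41 ± 0.20, Dlx2 at 1.55 ± 0.19, Emx1 at 1.23 ± 0.20, Nkx2-1 at 1.14 ± 0.40 and Dlx1 at 0.49 ± 0.089 (SD, n = 3). Gsx2 and Tbr1 were under 0.1 RPKM in each WT library. The ranges of Pax6 and Emx2 overlapped, as did those of Dlx2, Emx1 and Nkx2-1. In the knockout Lhx2 (19.0 ± 0.67), Pax6 (4.91 ± 0.071) and Emx2 (4.85 ± 0.15) kept the first ranks. Nkx2-1 came next at 1.60 ± 0.30 RPKM, followed by Dlx2 at 0.90 ± 0.18, Emx1 at 0.56 ± 0.24 and Dlx1 at 0.36 ± 0.028. There the ranges of Nkx2-1 and Dlx2 did not overlap, while those of Pax6 and Emx2, of Dlx2 and Emx1, and of Emx1 and Dlx1 did. The merged exons of Pax6 sum to 11694 bases, more than its longest transcript of 4427 bases, which lowers its RPKM. The same holds to a lesser degree for Lhx2 (4393 against 2840 bases), Dlx1 (5396 against 4111) and Emx1 (2184 against 1561). The order, and the overlap of Pax6 and Emx2, hold for merged exon lengths only, and other lengths were not tried.

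Ratios of counts inside a library need no scaling between libraries. Emx1 amounted to 17.6%, 23.7% and 19.8% of Emx2 in WT, and to 4.96%, 12.1% and 8.06% in the knockout. Dlx2 amounted to 29.1%, 37.6% and 34.1% of Emx2 in WT and to 13.6%, 17.7% and 21.9% in the knockout. Both ratios were lower in every knockout library. Lhx2 amounted to 187%, 203% and 197% of Pax6 in WT and to 143%, 150% and 144% in the knockout, again without overlap. The ratio of Emx2 to Pax6 was the same within its spread, at 25.4% ± 1.13 in WT and 25.4% ± 1.06 in the knockout (SD, n = 3). Of 7 ratios computed, 6 did not overlap between the genotypes. Each of them had a two-sided exact permutation p of 0.1, the smallest that 3 against 3 libraries allow, and an adjusted value of 0.117. For Emx1 to Emx2, Dlx2 to Emx2 and Lhx2 to Pax6 this follows from the CPM values. There the first gene was lower and the second higher in every knockout library, so these ratios add no separate support. The pairs share genes, and ratios of other genes were not compared.

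**Figure D3:**
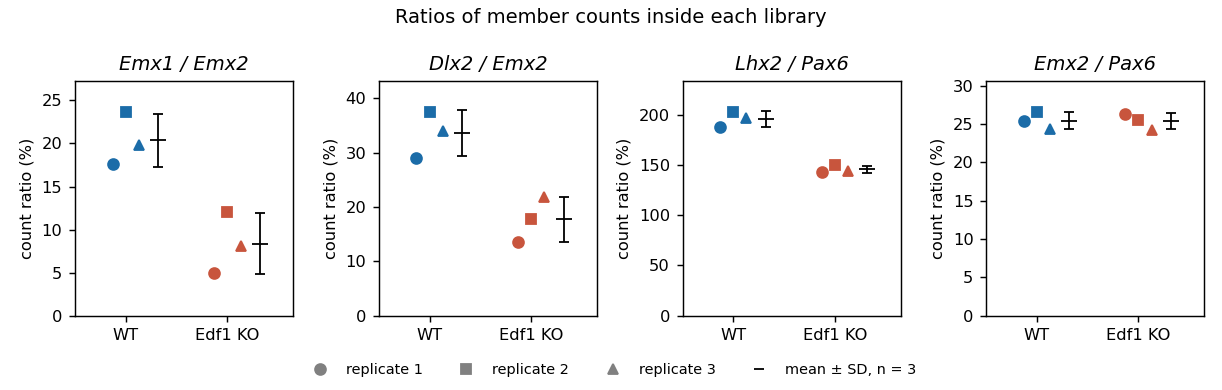
Ratio of the counts of a pair of genes inside each library, in percent (vertical axes start at 0), for 3 WT and 3 Edf1 knockout libraries with the mean ± SD. Emx1 and Dlx2 relative to Emx2, and Lhx2 relative to Pax6, were lower in every knockout library, whereas Emx2 relative to Pax6 had means of 25.4% in both genotypes.

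Other genes of telencephalic patterning, in lists written from general knowledge, were mostly not called. Of 18 other pallial genes, 9 were tested and 1 was called higher, with a median log2 fold change of 0.16. It was Nr2f2, a nuclear receptor of caudal and ventral territories (0.28, adjusted p-value 0.00905 by edgeR), which was lost without WT replicate 1 (0.0505). Neurog1 and Neurod6, genes of dorsal neurogenesis, had no count in any library. Of 19 other subpallial genes, 10 were tested, 2 were called higher and 1 lower, with a median of 0.084. Six3 (0.43, adjusted p-value 0.00220) and Rarb (0.35, adjusted p-value 0.0452) rose, and Meis2, a cofactor of homeodomain proteins, fell (-0.19, adjusted p-value 0.0423 by edgeR). Rarb and Meis2 each passed in 8 of 15 alternatives, with adjusted p-values up to 0.184 by edgeR, DESeq2 or limma and no change of sign. Leaving out WT replicate 3, or either of knockout replicates 2 and 3, ended both calls. Rarb also lost its call by DESeq2 and without WT replicate 2, and Meis2 without WT replicate 1, without knockout replicate 1 and with scaling to library size alone. The share called was thus 1 of 9 pallial and 3 of 10 subpallial genes, beside 26.9% of all tested genes. Dlx5, a downstream partner of Dlx1 and Dlx2, was not tested, with 9, 10 and 16 counts in WT, against 3, 8 and 4 in the knockout.

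Lists for neighbouring brain regions were counted in the same way. Of 23 genes of the diencephalon and hypothalamus, 10 were tested, 7 were called higher and none lower, with a median of 0.73 and a summed level of 73.1 to 76.3 CPM in WT and 94.6 to 97.2 CPM in the knockout. Of all tested genes, 12.7% were called higher. Barhl2 (1.80, adjusted p-value 0.000471), Nkx2-2 (0.58, adjusted p-value 0.00208) and Irx3 (0.75, adjusted p-value 0.00211 by edgeR) were among them. The hypothalamic markers Otp and Hmx3 were at 0 in every library. Of 18 midbrain and hindbrain genes, 2 were tested. Gata2 was called higher (1.10, adjusted p-value 0.0388 by edgeR), but in only 7 of 14 alternatives, not by DESeq2 and in only 1 of the 6 fits without a library, that without WT replicate 2. En2 had 0.015 with an adjusted p-value of 0.969 by edgeR. The list had a summed level of 3.54 to 3.73 CPM in WT and 4.10 to 5.59 CPM in the knockout.

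**Figure D4:**
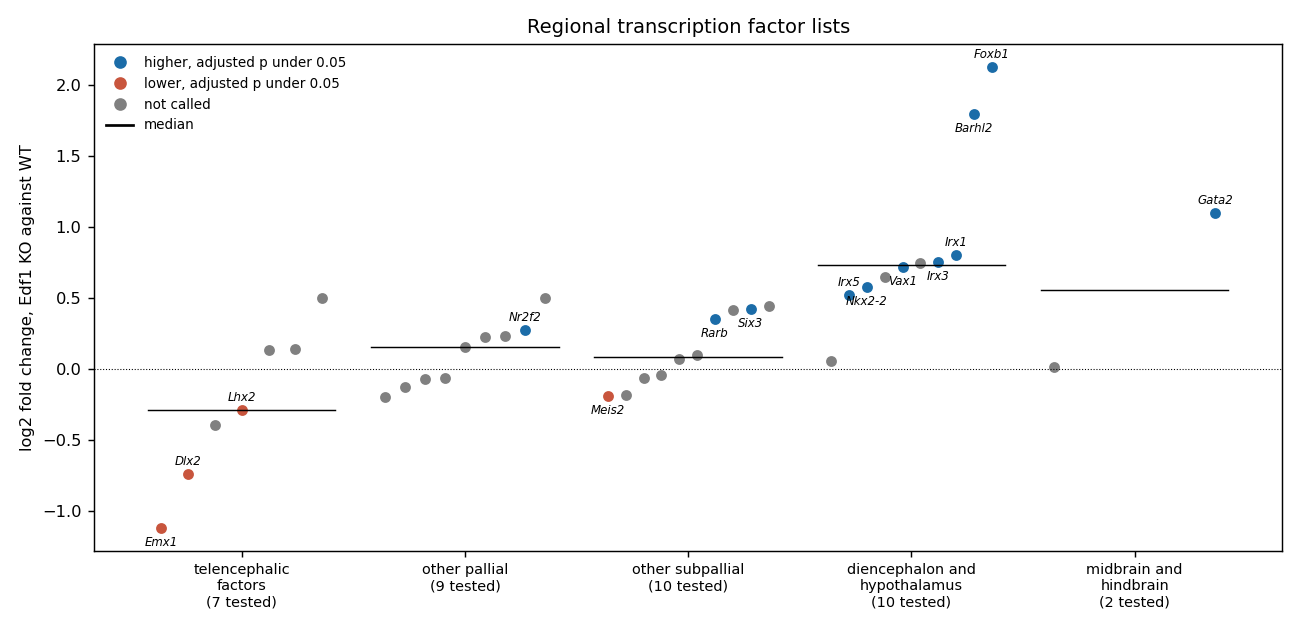
Log2 fold change of Edf1 knockout against WT (vertical axis) for each tested gene of 5 lists of regional transcription factors; black lines are list medians, and called genes are coloured and named. The 7 telencephalic factors had a median of -0.28, the other pallial and subpallial genes medians of 0.16 and 0.084, and the diencephalic genes a median of 0.73.

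Markers of other cell types were counted against the same shares of all tested genes, 12.7% called higher and 14.2% called lower. In the pituitary list, 4 of 18 genes were tested, 3 were called higher and 1 lower, with a summed level of 18.0 to 20.7 CPM in WT and 29.3 to 35.6 CPM in the knockout. The gene called lower was Lhb (-1.37, adjusted p-value 4.3e-06 by edgeR), which also had the smallest adjusted p-value of the list. Lhb held 14.0, 16.2 and 13.8 CPM of the sum in WT, against 4.98, 5.90 and 5.87 CPM in the knockout. Next came Cga (4.55, adjusted p-value 1.37e-05) and Prl (10.4, adjusted p-value 1.75e-05 by edgeR), both higher. The hormone gene Prl, at 0 in WT, had 198, 175 and 131 counts in the knockout, while Fshb and Gnrhr were at 0 in every library. In the neuron list, 3 of 10 tested genes were called lower and none higher. The median of the 10 was -0.088, with 4 values above 0 and 6 below. The called genes were Tubb3 (-0.81, adjusted p-value 0.00225), Dcx (-1.61, adjusted p-value 0.00896) and Calb2 (-1.16, adjusted p-value 0.0424 by edgeR). Calb2 passed in 6 of 14 alternatives, not by limma voom and in only 1 of the 6 fits without a library, that without WT replicate 3. Dcx, a marker of migrating neuroblasts, had only 0.80 ± 0.059 CPM in WT, against 0.26 ± 0.018 CPM in the knockout (SD, n = 3). The summed neuron list was 257 to 333 CPM in WT and 277 to 293 CPM in the knockout. Most of this sum was Map2, which was not called. It had 281, 210 and 287 CPM in WT and 250, 233 and 244 CPM in the knockout. In the microglia list 9 of 10 genes were lower, and in the fibroblast, mural and endothelial list 7 of 7 tested genes were higher. Among 13 radial glia and astrocyte genes 3 were higher and 2 lower, with a median of 0.10. In the choroid plexus list and in the oligodendrocyte lineage list 1 of 5 tested genes each was higher and none lower, with medians of -0.11 and 0.12. The part of these cell types in the values of Emx1, Dlx2, Lhx2 and Nkx2-1 was not tested.

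The genes most like the 3 called members over the 6 libraries are given as a description. By Pearson's r of log2 CPM, they were Ccdc103 (0.999) and Spag5 (0.998) for Lhx2, Gfer (0.996) and Supv3l1 (0.995) for Emx1, and Ppm1g (0.996) and Lsm12 (0.996) for Dlx2. The points share the division into 2 genotypes, and 574 of 12084 candidate genes had an r above 0.95 with Lhx2.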

How the data were processed

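Libraries came from TRIzol-extracted RNA and an MGIEasy mRNA kit, per the labels. The authors deposited raw read counts per gene symbol, with 1 column per library. FastQC 0.11.2, cutadapt 1.11, HISAT2 2.1.0 and build GRCm38 are named in the submitters' processing notes. The counting program, annotation, strand setting and treatment of reads mapping to several places are not given in the sources used here. The counts were analysed in R 4.3.3. Genes were filtered with filterByExpr and scaled with TMM factors (0.985 to 1.01) in edgeR 4.0.16. Knockout was tested against WT over 14243 genes by the quasi-likelihood test, with Benjamini-Hochberg adjustment and a threshold of 0.05. Standard errors are the log2 fold change over the square root of F. CPM use TMM-scaled totals, log2 CPM a prior count of 2. RPKM divide CPM by merged GENCODE M21 exon length. The floor was set at 3 counts per library and allows for counting error alone.

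The members and gene lists were chosen with earlier results of these data known. All 9 members are named, and called genes of the other pallial and subpallial lists may be. Of each marker list at most 3 called genes are named, those with the smallest adjusted p-values. Markers at 0 and genes named for their role or for their share of a sum were chosen after their values were seen. Likeness used genes with a mean log2 CPM of at least 2. Lists were described by medians and counts, with no set test. In counts drawn for the 14243 genes with 200 changed 2-fold, this comparison recovered 91.5% of them, and 7.11% of calls were false. The 200 were drawn over all levels. Their recovery therefore does not describe low-count members such as Emx1, or changes below 2-fold such as that of Lhx2. Alternatives used limma 3.58.1 voom, DESeq2 1.42.0, other scalings and filters, a replicate block, each library left out and a GC and length correction.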

Additional observations from a re-analysis of the deposited data

How the results depend on the processing

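None of the 7 tested members changed direction in any of the 15 alternatives, of which the GC and length correction was chosen after seeing the data. Emx1 and Dlx1 have 14, since a mean of at least 50 counts removed them. An adjusted p-value under 0.01 left 2213 of 3833 genes and ended the calls of Emx1 (-1.12) and Dlx2 (-0.74), with values unchanged by construction. Leaving out 1 library gave -1.44 to -0.90 for Emx1, -0.91 to -0.61 for Dlx2 and 0.29 to 0.72 for Nkx2-1, whose calls changed as described. The cause was not tested. The median of the other pallial genes was 0.051 with a mean of at least 50 counts, which left 6 genes, 0.10 after the GC and length correction, and 0.084 to 0.20 without 1 library. Its count of calls ran from 0 to 2, with 0 without WT replicate 1, and that of the subpallial genes from 1 to 3. The replicate block gave 4065 changed genes and -1.17 for Emx1, and changed no call of a member, but ended those of Rarb and Calb2. Deviations of same-numbered libraries correlated by only 0.069, 0.060 and 0.037, so no pairing was assumed. Counts of 12 to 64 limit Emx1, and Gsx2 and Tbr1 lie near the floor.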

Other observations

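Cofactors and relatives of the members were counted in lists written after the values of the members had been seen. A list of 10 held genes for cofactors of LIM-homeodomain proteins such as Lhx2, and LIM-only genes. The latter encode proteins that compete for the same cofactors. All 10 were tested, 5 were called lower and none higher by edgeR, beside 14.2% of all tested genes called lower. The LIM-only genes Lmo2, Lmo3 and Lmo4 fell by 0.89, 1.01 and 0.17 on the log2 scale, and Lmo1 was not called. Among the cofactor genes Ldb2 and Ssbp4 were lower, and Ldb1, Rlim, Ssbp2 and Ssbp3 were not called. Lmo3 did not pass without WT replicate 1 or knockout replicate 3 (adjusted p-value up to 0.0789 by edgeR). Lmo4 did not pass without WT replicate 1 or any 1 knockout library, or after the GC and length correction (up to 0.196). Ldb2, an adaptor that bridges LIM proteins, fell from 11.7 ± 0.45 to 7.96 ± 1.004 CPM, and Ssbp4, a partner of these adaptors, from 79.1 ± 4.63 to 60.4 ± 4.40 CPM (mean ± SD, n = 3). The more abundant adaptor gene Ldb1 had 120.1 ± 5.68 CPM in WT, against 119.9 ± 2.01 CPM in the knockout. Lmo2 is also expressed in cells of the blood lineage, and 9 of 10 microglia genes were lower in the same libraries. Their part in the value of Lmo2 was not tested.

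Dlx4 was the one other Dlx gene with enough counts to be tested. It had 53, 31 and 53 counts in WT, against 13, 19 and 28 in the knockout, and its log2 fold change was -1.32 (SE 0.26, adjusted p-value 0.00263 by edgeR). Dlx6 had 9, 3 and 1 counts in WT, against 0, 0 and 1 in the knockout. None of the 8 other Pax genes was tested, and Lmx1a was the 1 of 11 other LIM-homeodomain genes that was (-0.33, adjusted p-value 0.181 by edgeR).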
